A study of Homo sapiens with 6 samples.

Results

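The TEAD factors and the cofactors that bind them were followed in RNA-seq libraries of control and FAM60A-knockout HEK293 cells. The group was chosen by name, with earlier results of these data known. It held 8 of the 62754 genes in the count table. These were the 4 transcription factors TEAD1, TEAD2, TEAD3 and TEAD4 and the coactivators YAP1 and WWTR1 (the gene for TAZ). The others were the vestigial-like cofactors VGLL3 and VGLL4. All 8 passed the filter on low counts, with between 678 and 5898 counts in every library. The series compared 3 control libraries with 3 knockout libraries. HEK293 is an adherent line from human embryonic kidney, but the labels disagree, with HEK293 in the sample titles and HEK293T, its derivative with the SV40 large T antigen, as the cell line of both groups. Both groups grew in the same serum-containing medium. The knockout cells received Cas9 with several guide RNAs against 3 regions of FAM60A, a subunit of the Sin3/HDAC corepressor complex, and were kept as a puromycin-selected pool, so edited and unedited alleles are averaged. The labels give no treatment of the control cells other than "Control" and do not say whether the replicates came from separate cultures. P-values therefore measure the spread between these libraries, which may be technical.

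TEAD proteins bind DNA through a TEA domain and activate little on their own. In the Hippo pathway the kinases LATS1 and LATS2 phosphorylate YAP and TAZ, which keeps these coactivators out of the nucleus or marks them for degradation. When the kinases are quiet, YAP and TAZ enter the nucleus, bind TEADs and switch on genes such as CCN2 and ANKRD1. VGLL proteins bind the same surface of the TEADs. VGLL4 competes with YAP there and is known as a repressor of TEAD targets. Most of this control acts on the proteins, their phosphorylation and their location, none of which RNA counts measure.

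FAM60A, listed under its current symbol SINHCAF (ENSG00000139146, chr12:31280584-31326150, minus strand, GRCh38.p14), checked the labels. Its counts of 11028, 10165 and 12792 across the controls, in replicate order, stood against 5684, 5793 and 5449 across the knockout libraries. The groups did not overlap, and the log2 fold change (knockout minus control) was -0.85 ± 0.11 (SE), with an edgeR adjusted p of 0.00863. When 1 of the 5 libraries other than control replicate 3 was left out, its adjusted p lay between 0.0294 and 0.0736, and 2 of those 5 fits called it. Library totals lay between 88361827 and 93346824 counts. Control replicate 3 stood apart from the other two controls. Among 10162 tested genes whose knockout mean differed from the mean of control replicates 1 and 2 by at least 0.5 log2 CPM (counts scaled to library size after TMM normalization), 6563 (64.6%) had control replicate 3 nearer to the knockout mean. FAM60A itself was not among them. Results that rest on this library are therefore also given without it. All 7 HEK293 markers had counts, with PAX2 between 144 and 577 counts and VIM and KRT8 the highest. Their summed level was 1016 to 1856 CPM in controls, lowest in control replicate 3, and 846 to 980 CPM in knockout libraries. With all libraries, all 7 were fitted lower in the knockout, beside 50.6% of all tested genes. NEFM was the 1 called, by -0.77 on the log2 scale (adjusted p = 0.0493), where 8.67% of all tested genes were called lower. Without control replicate 3, 5 of the 7 were called lower, beside 33.2% of all tested genes. PAX2 and NEFL were then fitted higher, by 0.29 and 0.10 on the log2 scale, and were not called. The 5 markers of MDA-MB-231, the breast cancer line also used in the study, summed to 103 to 422 CPM in controls, lowest in control replicate 3, and to 119 to 131 CPM in knockout libraries. ANXA1 carried most of that sum in control replicates 1 and 2, at 285, 295 and 16.97 CPM across the controls. Its knockout values were 22.1, 19.4 and 19.8 CPM. These markers differed in direction. PLAU was called higher in the knockout by 0.77 on the log2 scale (adjusted p = 0.0226) and CD44 had a fitted 0.35. ANXA1, S100A4 and CAV1 had fitted log2 fold changes of -3.29, -0.97 and -0.34, and none of them was called with all libraries. Without control replicate 3 these 3 were called lower, by -3.86, -0.72 and -0.56 on the log2 scale, beside 33.2% of all tested genes. PLAU stayed called higher, at 0.76, and CD44 was not called. PTPRC and ALB, markers of leukocytes and hepatocytes, had at most 9 counts in any library. DCN, a fibroblast marker, had at most 1 count in a control and at least 30 in a knockout library. COL1A1, the other fibroblast marker, went the other way, at 25.1, 26.3 and 19.2 CPM across the controls, against 13.6, 15.96 and 14.99 CPM across the knockouts. It was called lower by 0.66 on the log2 scale (adjusted p = 0.0361). With COL1A1, which made up most of it, these 4 summed to 19.3 to 26.4 CPM in controls and 14.01 to 16.5 CPM in knockout libraries. The part of these marker differences in the results was not tested.

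The 4 TEAD genes lie on 4 chromosomes. TEAD1 (ENSG00000187079) spans chr11:12674421-12944737 on the plus strand, TEAD2 (ENSG00000074219) chr19:49340595-49362416 on the minus strand, TEAD3 (ENSG00000007866) chr6:35473597-35497079 on the minus strand and TEAD4 (ENSG00000197905) chr12:2959397-3040676 on the plus strand (GRCh38.p14). Their canonical coding sequences were 1278, 1353, 1305 and 1302 bases long and were 70.8% to 75.5% identical in pairs. The 60-base coding stretch of TEAD1 that is best matched in each of the other TEAD genes shows how close they come. It was read from GENCODE transcripts and starts at coding base 84 in TEAD1 and TEAD3, 114 in TEAD2 and 108 in TEAD4, and capitals mark the 15 positions that are not the same in all 4.
TEAD1: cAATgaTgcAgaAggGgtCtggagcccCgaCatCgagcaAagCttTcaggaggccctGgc
TEAD2: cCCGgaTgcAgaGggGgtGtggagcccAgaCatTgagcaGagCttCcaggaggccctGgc
TEAD3: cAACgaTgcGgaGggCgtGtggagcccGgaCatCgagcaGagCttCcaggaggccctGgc
TEAD4: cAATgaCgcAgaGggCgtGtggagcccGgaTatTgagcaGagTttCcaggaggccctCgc
The longest identical run between any pair was 56 bases, shared by TEAD3 and TEAD4.

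TEAD2 was the member with the clearest difference. It stood at 29.2, 32.9 and 28.4 CPM across control replicates 1 to 3, against 16.1, 16.6 and 14.6 CPM in the knockout libraries, so every control was well above every knockout library. Its mean fell from 30.2 ± 2.38 to 15.8 ± 1.03 CPM (SD, n = 3 each), a log2 fold change of -0.94 ± 0.11 (SE) with an edgeR adjusted p of 0.00721. Control replicate 3 lay with the other controls for this gene, and without it the log2 fold change was -1.01 with an adjusted p of 8.53e-10. The call was lost, at an adjusted p of up to 0.0654, in the fits without knockout replicate 1 or 3. In bulk RNA, fewer cells that express a gene and less RNA per cell cannot be told apart. TEAD2 was the only member of the 8 called in the comparison of all 6 libraries, in which 16.6% of the 20992 tested genes were called, 8.67% lower and 7.96% higher. DESeq2 called 3 members, TEAD3 and VGLL3 in addition, where it called 26.6% of these genes, and limma called TEAD2 alone, beside 17.2%. In all, 7 of the 8 members were fitted lower in the knockout, against 50.6% of tested genes, with a median log2 fold change of -0.41 beside -0.01 over all tested genes.

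**Figure D1:**
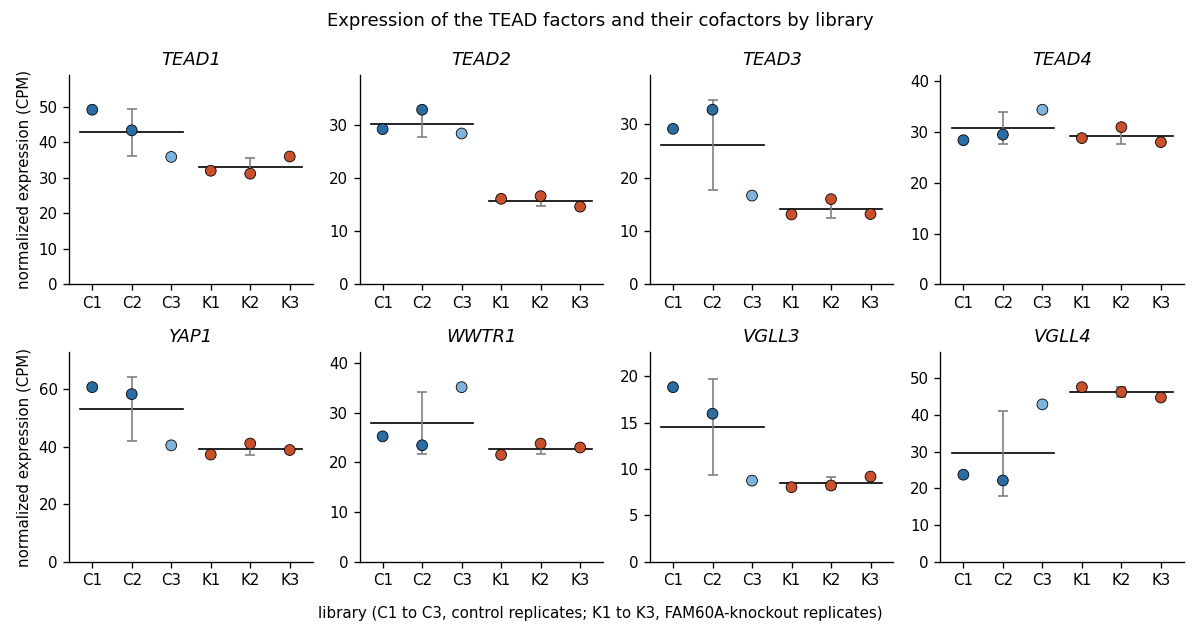
Level of each member in CPM in each of the 6 libraries (C1 to C3 control, K1 to K3 knockout replicates), with 1 point per library, lines for group means and bars for their SD. TEAD2, TEAD3 and VGLL4 are the 3 of 8 members without overlap between groups, and control replicate 3 lies near or among the knockout libraries for TEAD1, TEAD3, YAP1, VGLL3 and VGLL4.

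The other 3 TEAD genes were not called with all 6 libraries in the edgeR fit. TEAD3 stood at 29.1, 32.7 and 16.6 CPM across the controls, against 13.1, 15.96 and 13.2 CPM across the knockouts. Control replicate 3 was just above the highest knockout library, so the groups did not overlap but nearly met. The log2 fold change was -0.89 ± 0.26 (SE, adjusted p = 0.0635) with all libraries and -1.17 ± 0.09 (adjusted p = 3.71e-10) without control replicate 3. TEAD1 stood at 49.1, 43.3 and 35.8 CPM across the controls, against 32.0, 31.1 and 35.96 CPM across the knockouts. Control replicate 3 fell within the knockout range, and the log2 fold change was -0.37 ± 0.14 (SE, adjusted p = 0.116), or -0.52 ± 0.08 (adjusted p = 1.64e-05) without that library. TEAD4 stood at 28.4, 29.5 and 34.4 CPM across the controls, against 28.8, 30.98 and 28.03 CPM across the knockouts. The groups overlapped, the log2 fold change was -0.07, and its 95% confidence interval ran from -0.34 to 0.20 (adjusted p = 0.685). TEAD4 was called under none of the 12 alternative settings, where its adjusted p lay between 0.286 and 0.915.

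Counts were divided by the merged exon length of each gene to compare levels between genes. On this scale, CPM per kilobase, TEAD4 was the highest of the 8 members in both groups, at 13.5 ± 1.41 in controls and 12.9 ± 0.672 in the knockout (SD, n = 3 each), without overlap with the next member. In controls it was followed by TEAD2 at 10.1 ± 0.800, TEAD3 at 8.58 ± 2.77, YAP1 at 8.41 ± 1.75, VGLL4 at 4.10 ± 1.60, TEAD1 at 3.996 ± 0.622, WWTR1 at 3.35 ± 0.755 and VGLL3 at 1.14 ± 0.408 CPM per kilobase. Of these neighbours in rank, TEAD2 and TEAD3, TEAD3 and YAP1, VGLL4 and TEAD1, and TEAD1 and WWTR1 overlapped between control libraries. In the knockout the order after TEAD4 was VGLL4 at 6.41 ± 0.196, YAP1 at 6.18 ± 0.306, TEAD2 at 5.299 ± 0.347, TEAD3 at 4.62 ± 0.536, TEAD1 at 3.09 ± 0.242, WWTR1 at 2.73 ± 0.138 and VGLL3 at 0.666 ± 0.0483 CPM per kilobase. There the overlapping neighbours were VGLL4 with YAP1 and TEAD2 with TEAD3. These ranks and overlaps are given for merged exon length only and can differ with another length. The merged length is 7199 bases for VGLL4 and 8353 for WWTR1, but their longest coding transcripts have 3775 and 5037. For YAP1 these lengths are closer, at 6311 and 5401 bases, as they are for TEAD1, at 10700 and 9417.

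The make-up of TEAD RNA was described as the share of each paralogue in the length-scaled sum of the 4 genes. TEAD4 held 34.3% and 33.4% of the sum in control replicates 1 and 2, 45.2% in control replicate 3, and 49.96%, 49.8% and 49.4% in the knockout libraries. TEAD4 was thus the largest share in every library, and control replicate 3 lay between the other controls and the knockout libraries. TEAD2 held 26.9%, 28.5% and 28.5% across the controls, against 21.3%, 20.4% and 19.7% across the knockouts. Control replicate 3 was at the level of control replicate 2 for this share, and the group means differed by -7.48 percentage points, against SDs of 0.900 and 0.812. TEAD3 held 26.2% and 27.7% in control replicates 1 and 2 but 16.3% in control replicate 3, below the 16.9%, 19.1% and 17.3% of the knockout libraries. TEAD1 stayed the smallest share, at 12.6%, 10.4% and 10.0% in controls and 11.8%, 10.6% and 13.5% in the knockout. The sum of the 4 genes was 36.4, 38.8 and 33.5 CPM per kilobase across the controls, against 25.4, 27.3 and 24.9 across the knockouts, so TEAD RNA as a whole was lower in every knockout library.

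**Figure D2:**
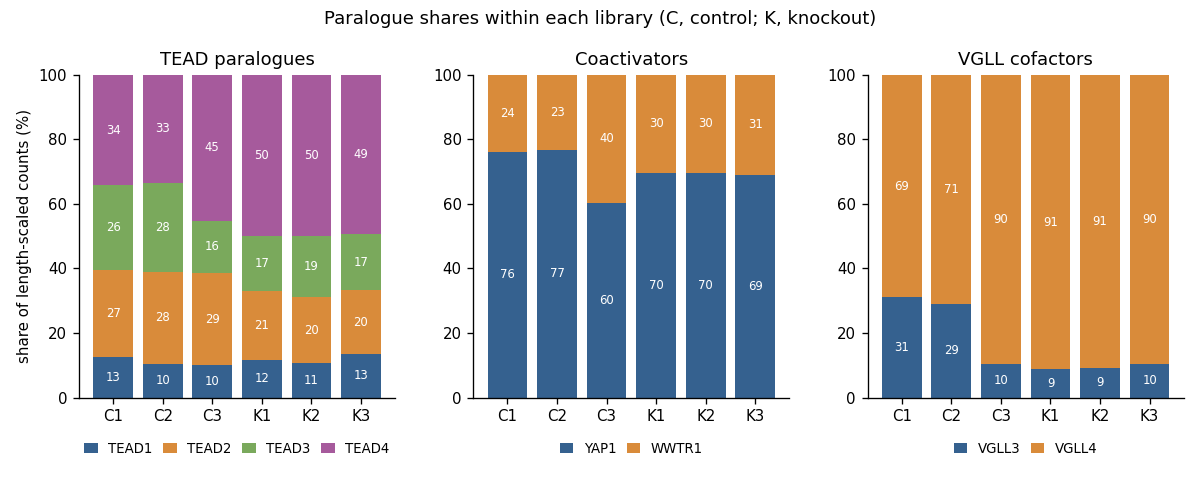
Stacked shares in percent of the length-scaled RNA of TEAD1 to TEAD4, of YAP1 and WWTR1, and of VGLL3 and VGLL4, 1 bar for each of the 6 libraries. The TEAD4 share averages 33.8% in control replicates 1 and 2, 45.2% in control replicate 3 and 49.7% in the knockout, while the TEAD2 share averages 27.7%, 28.5% and 20.5%.

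Ratios of 2 members within a library do not depend on scaling between libraries, and 5 were compared. The log2 ratio of TEAD2 to TEAD4 was 0.04, 0.16 and -0.28 across the controls, against -0.84, -0.90 and -0.94 across the knockouts, a difference of -0.87 without overlap (-0.99 without control replicate 3). That of TEAD2 to TEAD1 differed by -0.57, again without overlap (-0.49 without control replicate 3). Both had an exact two-sided permutation p of 0.1, the smallest that 3 libraries against 3 allow, and 0.25 after Benjamini-Hochberg adjustment over the 5 ratios. TEAD2 to TEAD3 differed by -0.09 (exact permutation p = 1.0) and by 0.16 without control replicate 3, so these 2 paralogues were not shown to differ in their change.

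The coactivators were both expressed in every library. YAP1 (ENSG00000137693, chr11:102110447-102233424, plus strand) had 60.6, 58.2 and 40.4 CPM across the controls, against 37.2, 41.1 and 38.8 CPM across the knockouts. The value of control replicate 3 fell inside the knockout range. The log2 fold change was -0.44 ± 0.17 (SE, adjusted p = 0.115) with all libraries and -0.64 ± 0.08 (adjusted p = 2.1e-07) without control replicate 3. WWTR1 (ENSG00000018408, chr3:149517235-149724788, minus strand) had 25.3, 23.5 and 35.2 CPM across the controls, against 21.5, 23.8 and 23.0 CPM across the knockouts. It was high in control replicate 3 alone, which departs from the other controls on the side away from the knockout. Its log2 fold change was -0.30 (95% confidence interval -0.71 to 0.12, adjusted p = 0.267), or -0.13 (-0.30 to 0.04, adjusted p = 0.170) without that library.

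YAP1 held 76.1% and 76.7% of the length-scaled coactivator RNA in control replicates 1 and 2, 60.4% in control replicate 3 and 69.6%, 69.5% and 69.1% in the knockout libraries. Control replicate 3 was thus below all other libraries, and the other two controls above them. The log2 ratio of YAP1 to WWTR1 differed by -0.15 between groups (exact permutation p = 1.0) and by -0.51 without control replicate 3. The coactivator sum was 12.6, 12.03 and 10.6 CPM per kilobase across the controls, against 8.48, 9.36 and 8.90 across the knockouts. Coactivator RNA per unit of TEAD RNA was 0.347, 0.310 and 0.317 across the controls, against 0.334, 0.342 and 0.357 across the knockouts, so the sums of both families were lower and their ratio overlapped between groups.

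The vestigial-like cofactors had fitted differences of opposite sign, and neither was called with all libraries. VGLL4 (ENSG00000144560, chr3:11556067-11721815, minus strand) had 23.7 and 22.1 CPM in control replicates 1 and 2, 42.8 CPM in control replicate 3, and 47.5, 46.2 and 44.7 CPM in the knockout libraries. Control replicate 3 was close to the lowest knockout library, and the groups did not overlap. The log2 fold change was 0.64 ± 0.26 (SE, adjusted p = 0.136) with all libraries and 0.98 ± 0.08 (adjusted p = 5.42e-10) without control replicate 3. VGLL3 (ENSG00000206538, chr3:86937973-86991149, minus strand) had 18.8, 15.97 and 8.75 CPM across the controls, against 8.05, 8.23 and 9.19 CPM across the knockouts, with control replicate 3 inside the knockout range. Its log2 fold change was -0.77 ± 0.29 (SE, adjusted p = 0.111), and -1.07 ± 0.09 (adjusted p = 2.72e-09) without that library. TEAD2, TEAD3 and VGLL4 did not overlap between groups, which is 3 of 8 members, beside 41.6% of all tested genes.

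VGLL4 held 69.0% and 71.0% of the VGLL3 and VGLL4 RNA in control replicates 1 and 2, 89.6% in control replicate 3 and 91.3%, 90.9% and 89.6% in the knockout libraries. Set against the TEAD sum, VGLL4 RNA was 0.0903 and 0.0792 in control replicates 1 and 2, 0.178 in control replicate 3 and 0.260, 0.235 and 0.249 in the knockout libraries. The log2 ratio of VGLL3 to VGLL4 differed by -1.41 (exact permutation p = 0.2, adjusted 0.333), and by -2.04 without control replicate 3. Of the other family members, VGLL1 had 0 counts in all 6 libraries. VGLL2 had 57 and 63 counts in control replicates 1 and 2, 380 in control replicate 3 and 340, 435 and 337 in the knockout libraries, with a log2 fold change of 1.31 (adjusted p = 0.263), and of 2.75 with a call without control replicate 3.

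**Figure D3:**
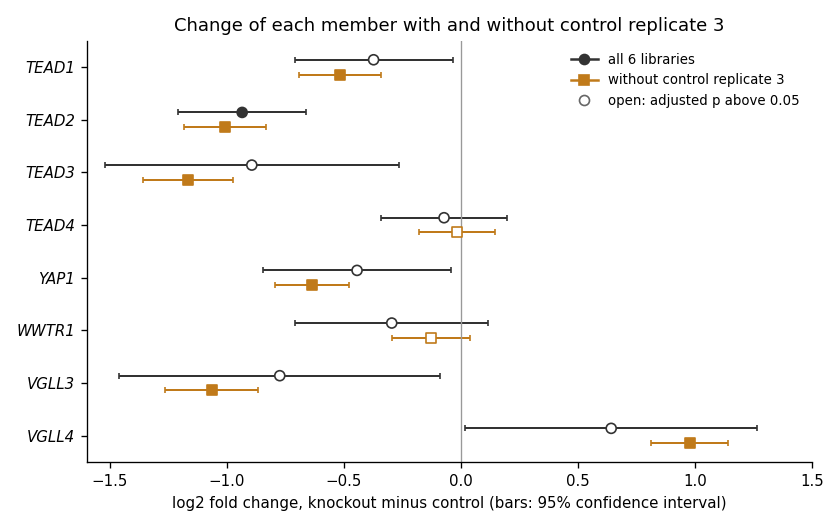
Log2 fold change of each member (knockout minus control) with its 95% confidence interval, with all 6 libraries (circles) and without control replicate 3 (squares), with open symbols for an adjusted p above 0.05. With all libraries TEAD2 alone is filled, and without control replicate 3 the 6 filled members are TEAD1, TEAD2, TEAD3, YAP1, VGLL3 and VGLL4.

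Without control replicate 3, 6 of the 8 members were called, 5 lower and 1 higher, with a median log2 fold change of -0.58. The background rose as well, to 65.6% of 21686 tested genes, 33.2% lower and 32.4% higher, so this count is read against that share. Where control replicate 3 lay was put on a scale with 0 at the mean of control replicates 1 and 2 and 1 at the knockout mean, for genes with a gap of at least 0.5 log2 CPM. The position was 0.129 for TEAD2, 0.784 for TEAD3, 0.914 for YAP1, 0.955 for VGLL3 and 0.894 for VGLL4, against -0.364 for FAM60A. Thus 4 of the 5 members on this scale were nearer to the knockout, as were 64.6% of all tested genes on it, whose median position was 0.753 with quartiles of 0.280 and 1.18. TEAD2 was the member near the other controls. For TEAD1, TEAD4 and WWTR1 the gap was under 0.5, and control replicate 3 differed from the other controls by -0.36, 0.25 and 0.53 log2 CPM.

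**Figure D4:**
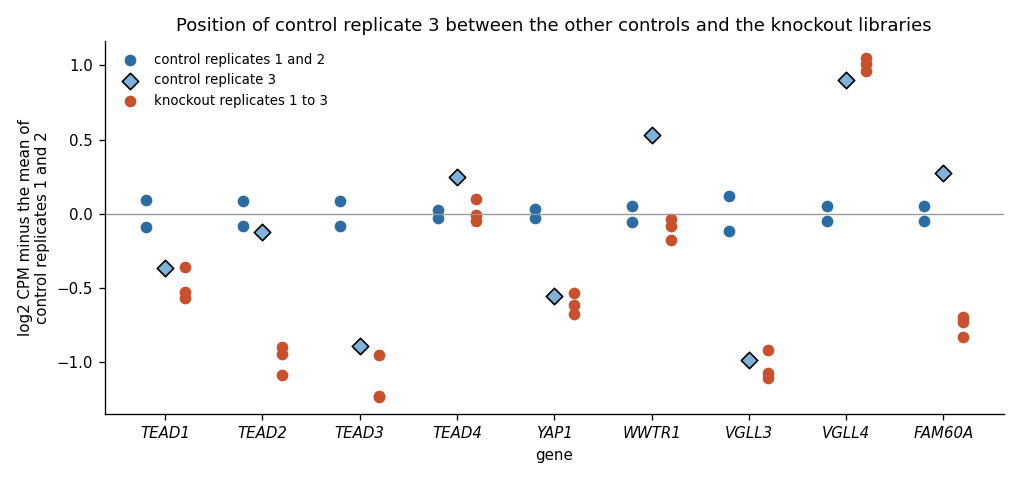
Log2 CPM of each member and FAM60A in control replicate 3 and in the knockout libraries, as the difference from the mean of control replicates 1 and 2. TEAD2 and FAM60A are low in the knockout libraries only, TEAD1, TEAD3, YAP1, VGLL3 and VGLL4 have control replicate 3 near or among the knockout libraries, and WWTR1 is high in control replicate 3 only.

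The neighbours of the members on their chromosomes were looked at next. Of 32 tested protein-coding neighbours, the 2 nearest on each side of each member, 1 was called lower and 2 higher, where 8.67% and 7.96% of all tested genes were, and their median log2 fold change was 0.10. Without control replicate 3, 8 neighbours were called lower and 14 higher, beside 33.2% and 32.4% of all tested genes. Beside YAP1, BIRC3, an inhibitor of apoptosis, rose from 195, 166 and 298 counts across the controls to 1253, 1059 and 1215 after knockout, a log2 fold change of 2.58. It was called under all 12 alternatives. CRACR2A, a calcium sensor beside TEAD4, rose by 1.23, and FANCE, a Fanconi anaemia gene beside TEAD3, fell by 0.37 on the log2 scale. Both calls were lost when any 1 of the 5 libraries other than control replicate 3 was left out, where the adjusted p lay between 0.0771 and 0.119 for CRACR2A and between 0.0787 and 0.156 for FANCE. VGLL4 overlaps ATG7, an autophagy gene on the opposite strand, which had 1731, 1762 and 3531 counts across the controls, against 2639, 2850 and 2528 across the knockouts. Both genes of this pair were higher in control replicate 3 than in the other controls. So were the other tested neighbours of VGLL4, namely TAMM41, SYN2 and HRH1. TAMM41 had 879, 1027 and 1926 counts across the controls, against 1364, 1583 and 1447 across the knockouts. Without control replicate 3, ATG7, TAMM41 and SYN2 were called higher, by 0.74, 0.74 and 1.15 on the log2 scale. HRH1 was not, at 0.58 (adjusted p = 0.0513). TEAD2 overlaps the protein-coding genes CD37, which had between 82 and 216 counts in any library, and DKKL1, which had between 20 and 54. The sources used here do not give the strand setting of the counting, so reads of overlapping genes may not have been told apart.

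Likeness across the 6 libraries was measured as the root mean square difference of log2 CPM after each gene was centred on its own mean. Among the members TEAD1 and YAP1 were most alike at 0.115, followed by TEAD4 and WWTR1 at 0.152 and TEAD3 and VGLL3 at 0.188. TEAD3 and VGLL4 were farthest apart at 0.986. TEAD2 lay 0.163 from FAM60A. Of all tested genes, the nearest was CYP26B1, an enzyme that breaks down retinoic acid, to TEAD2 at 0.04997, TET3 to TEAD1 at 0.0357, WRAP53 to TEAD3 at 0.0325 and ENSG00000235105 to TEAD4 at 0.0185. It was ZNF761 to YAP1 at 0.0170, FBXW8 to WWTR1 at 0.0239, DNAH17 to VGLL3 at 0.0346 and NADK2 to VGLL4 at 0.0380. These distances describe 6 libraries, control replicate 3 included.

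Other partners of the TEADs gave 4 calls among 12 tested genes, 1 lower and 3 higher, where 16.6% of all tested genes were called, and their median log2 fold change was -0.10. JUN, an AP-1 subunit that binds DNA beside TEADs, had 32628, 32277 and 32912 counts across the controls, against 51468, 55612 and 52913 across the knockouts. The 3 controls were tightly grouped, the log2 fold change was 0.87 (adjusted p = 0.0040), and the call held under all 12 alternatives. FOS, the other classical AP-1 subunit, had 529, 526 and 315 counts across the controls, against 849, 1012 and 792 across the knockouts, a log2 fold change of 1.11 (adjusted p = 0.0312). NCOA2, a steroid receptor coactivator, rose by 0.48 (adjusted p = 0.04998) and its relative NCOA1 fell by 0.42 on the log2 scale (adjusted p = 0.0449). FOS, NCOA2 and NCOA1 were no longer called when any 1 of the 5 libraries other than control replicate 3 was left out, with adjusted p of up to 0.129, 0.179 and 0.195. Without control replicate 3, 7 of the 12 were called lower and 4 higher, beside 33.2% and 32.4% of all tested genes.

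Upstream of the coactivators, 1 of 12 tested Hippo kinases and adaptors was called, beside 16.6% of all tested genes. MOB1A, the adaptor that activates the LATS kinases, fell by 0.47 on the log2 scale (adjusted p = 0.0234, and 0.0772 to 0.132 when any 1 of the 5 libraries other than control replicate 3 was left out). The median of this list was -0.06, and without control replicate 3 it had 5 lower and 2 higher calls, where 33.2% and 32.4% of all tested genes were called. Among 8 genes for retention and turnover of YAP and TAZ, AMOTL2, an angiomotin that tethers YAP in the cytoplasm, was the 1 called, lower, and the list's median was -0.42. Without control replicate 3, 5 of these 8 were called lower, beside 33.2% of all tested genes. AMOTL2, LATS2 and PTPN14 stand in 2 of the lists.

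**Figure D5:**
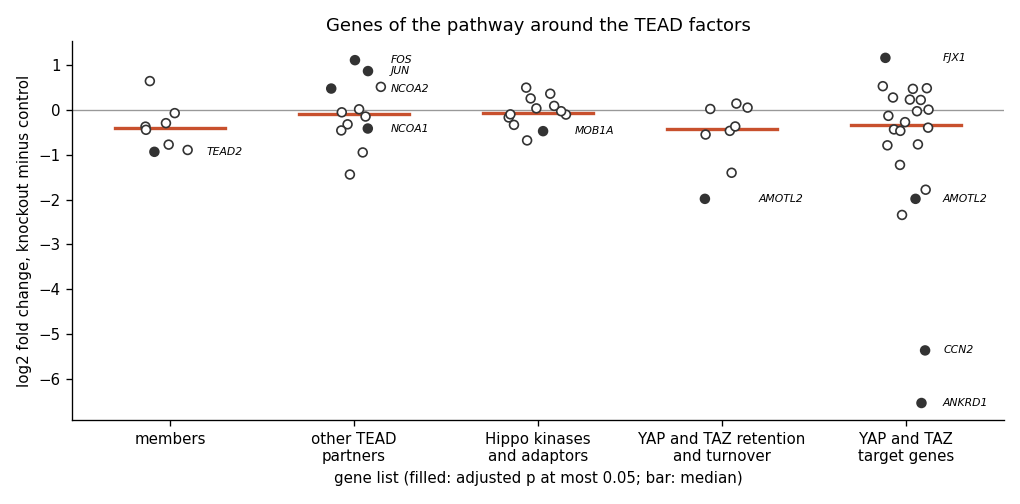
Log2 fold change (knockout minus control) of every tested gene among the members and in 4 lists, with 1 point per gene, filled where the adjusted p is at most 0.05, and the list median marked. ANKRD1 and CCN2 lie lowest in the YAP and TAZ target list, while FJX1 is its 1 gene called higher.

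Of 22 tested target genes of YAP and TAZ, 3 were called lower and 1 higher, beside 8.67% and 7.96% of all tested genes, and 14 were fitted lower with a median of -0.33. ANKRD1, an ankyrin repeat protein, had 8482 and 7423 counts in control replicates 1 and 2, 69 in control replicate 3 and 51, 46 and 57 in the knockout libraries. CCN2, a matricellular protein also named CTGF, had 21941, 21764 and 274 counts across the controls, against 315, 322 and 321 across the knockouts. AMOTL2 had 3532, 3661 and 974 counts across the controls, against 561, 657 and 637 across the knockouts. Control replicate 3 was just above the knockout libraries for ANKRD1, below them for CCN2 and nearer to them than to the other controls for AMOTL2. Their log2 fold changes were -6.54, -5.36 and -1.98, with adjusted p of 0.0398, 0.0485 and 0.0393. These 3 calls were lost when any 1 of the 5 libraries other than control replicate 3 was left out, where the adjusted p reached 0.166, 0.184 and 0.162. Without control replicate 3 the log2 fold changes of ANKRD1, CCN2 and AMOTL2 were -7.15, -5.97 and -2.42 (edgeR adjusted p = 1.76e-21, 5.26e-22 and 4.37e-16). FJX1, a four-jointed homologue, had 2325, 2752 and 2317 counts across the controls, against 4775, 5328 and 4739 across the knockouts, a log2 fold change of 1.16 (adjusted p = 0.0045), and its call held under all 12 alternatives. For this gene control replicate 3 lay with the other controls, as for TEAD2 and JUN. Of the 12 targets with a gap of at least 0.5 log2 CPM, 11 had control replicate 3 nearer to the knockout, at a median position of 1.02, beside 64.6% of all tested genes. Without control replicate 3, 13 of the 22 targets were called lower and 5 higher, beside 33.2% and 32.4% of all tested genes.

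The target promoters are shown because TEADs recognise the letters CATTCC, or GGAATG on the other strand. RefSeq promoters of GRCh38.p14, from 250 bases before to 50 after the start, were searched for these letters on both strands. They were present in 14.03% of 35116 promoters, which belong to 27305 genes, of which 16.7% had a match. Of the 16 target genes with a promoter in the table, 9 (56.3%) held a match, and of 6 members with one, YAP1 alone did. In the sequences of CCN2 (chr6:131951373-131951622, minus strand), ANKRD1 (chr10:90921088-90921337, minus strand), YAP1 (chr11:102110273-102110302, plus strand) and AMOTL2 (chr3:134374499-134374528, minus strand), capitals mark the matches, and each is written 5′ to 3′ on the strand of its gene.
CCN2: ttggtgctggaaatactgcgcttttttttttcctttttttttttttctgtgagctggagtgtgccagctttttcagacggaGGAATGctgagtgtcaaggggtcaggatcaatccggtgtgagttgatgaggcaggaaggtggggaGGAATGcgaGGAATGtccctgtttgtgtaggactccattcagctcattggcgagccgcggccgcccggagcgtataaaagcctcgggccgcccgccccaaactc
ANKRD1: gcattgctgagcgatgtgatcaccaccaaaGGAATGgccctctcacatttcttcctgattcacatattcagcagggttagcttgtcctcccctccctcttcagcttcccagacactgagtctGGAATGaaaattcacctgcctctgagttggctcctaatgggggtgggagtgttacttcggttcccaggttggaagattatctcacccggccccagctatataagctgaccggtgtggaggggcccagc
YAP1: cgggagtgtgcaGGAATGtagcaacttgca
AMOTL2: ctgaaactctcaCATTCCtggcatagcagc
The matches began 169, 104 and 95 bases before the start of CCN2, 220 and 128 before that of ANKRD1, 162 before that of YAP1 and 69 before that of AMOTL2. CCN2 and ANKRD1, the targets with the largest fitted falls, held 3 and 2 matches, while 1.37% of all promoters held 2 or more. NUAK2, a kinase gene named here after its values were seen, was the other target with 2 matches, and its log2 fold change was -0.13 (adjusted p = 0.785). MYOF and IGFBP3, named in the same way, held no match, with log2 fold changes of -1.78 and -1.23 (adjusted p = 0.182 and 0.238). FJX1, the target called higher with all libraries, held none either, and AMOTL2 has another promoter without a match. Without control replicate 3, NUAK2, MYOF and IGFBP3 had log2 fold changes of -0.39, -2.34 and -1.74. All were then called (edgeR adjusted p = 0.025, 1.06e-15 and 4.43e-09), where 65.6% of all tested genes were. A match describes letters and not binding, which was not measured here.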

How the data were processed

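Poly(A) RNA of 3 control and 3 knockout libraries was analysed. The authors deposited raw counts for each Ensembl gene as whole numbers that were not normalized. The submitters' processing notes name STAR 2.7.10b, featureCounts 2.0.0 and hg38, whereas the paper's methods name Trimmomatic and Salmon and the extraction text hg19. The annotation release and the strand setting of the counting are not given in the sources used here, although the library kit keeps strand. Counts are therefore taken as they stand, and overlapping genes are uncertain. Of the 62754 genes, 60878 were matched to a symbol. Library totals lay between 88361827 and 93346824. A list symbol that could not be matched, PECAM1, was left out.

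Groups were taken from the labels. Counts were compared with edgeR 4.0.16 in R 4.3.3, with TMM normalization, filterByExpr at a minimum count of 10 and its quasi-likelihood F-test, two-sided and adjusted by Benjamini-Hochberg over 20992 genes, and genes with an adjusted p of at most 0.05 were called. Log2 CPM used a prior count of 2. Levels per kilobase and shares used the merged exon lengths of GENCODE v44 lifted to GRCh37, from which the coding sequences were also read. Coordinates and promoters are those of RefSeq GRCh38.p14. Ratios of members were compared by exact two-sided permutation tests. The fit was also run on simulated counts. These had a smaller spread than the libraries here and none set apart like control replicate 3, so they do not show how the fit behaves with it. Alternatives were DESeq2 1.42.0, library size without TMM, limma-voom after quantile normalization (limma 3.58.1), other filters, other lengths, leaving out each library and the replicate number as a block. Shares, ratios and figures used pandas 2.3.3, scipy 1.17.1, numpy 2.4.6 and matplotlib 3.10.9 under Python 3.11.15.

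The members and lists were chosen with earlier results of these data known, so no p is given over a list. Named genes were all members and FAM60A. In each list they were up to 3 called genes in each direction with the largest fold change, or the 2 largest where none was called. Called neighbours and the gene most alike to each member were also named. ATG7, CD37, DKKL1 and the marker genes were named for their overlap or as markers. TAMM41, SYN2 and HRH1 were named as the other neighbours of VGLL4, and NUAK2, MYOF and IGFBP3 for their promoters, after their values were seen.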

Additional observations from a re-analysis of the deposited data

How the results depend on the processing

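With all libraries, 3491 genes were called, 5581 with DESeq2 and between 167 and 14221 when 1 library was left out, the highest without control replicate 3. Of the 8 members 1 was called, 3 with DESeq2, 2 with library size alone and between 0 and 6 when 1 library was left out. The 0 came from edgeR without knockout replicate 1 or 3, where 2 and 3 members had an unadjusted p under 0.05. For the lists, the 4 calls among other TEAD partners became 2 with limma, 2 without a filter and 1 to 11 when 1 library was left out. The 1 call among Hippo kinases became 3 with DESeq2, 2 with library size alone and 0 to 7 when 1 library was left out. The 1 call for retention and turnover became 3 with DESeq2, 0 with limma, where 2 genes had an unadjusted p under 0.05, 2 with library size alone and 0 to 5 when 1 library was left out. The 4 calls among targets became 8 with DESeq2, 1 with limma and 1 to 18 when 1 library was left out. VGLL2 was the 1 gene of the other VGLL genes tested, with 0 to 1 calls. The cause of these differences was not tested.

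When 1 library was left out, the difference in share lay between 0.195 and 1.75 percentage points for TEAD1, -8.00 and -7.10 for TEAD2, -9.13 and -3.45 for TEAD3, 10.0 and 15.9 for TEAD4, 10.2 and 20.6 for VGLL4 and -6.96 and 1.19 for YAP1. The YAP1 share reversed, to 0.894 without control replicate 1 and 1.19 without control replicate 2. Counts without division by length gave 3.01 for TEAD1 and -6.18 for TEAD2, by which TEAD1 had the largest share. The log2 ratios lay between -0.70 and -0.45 for TEAD2 to TEAD1, -0.22 and 0.16 for TEAD2 to TEAD3, -0.99 and -0.77 for TEAD2 to TEAD4, -0.51 and 0.04 for YAP1 to WWTR1, and -2.04 and -1.06 for VGLL3 to VGLL4. TEAD2 to TEAD3 reversed to 0.163 without control replicate 3, and YAP1 to WWTR1 to 0.0206 and 0.0444 without control replicate 1 or 2.

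The deviations of same-numbered libraries from their group means correlated at 0.0101, 0.0306 and -0.0362, and those of different-numbered libraries between -0.0841 and 0.0771. No pairing by replicate number was seen, but with 3 libraries per group, control replicate 3 among them, these values cannot decide it. A replicate block in the edgeR fit left 407 genes called. TEAD2 stayed the 1 member called, and the calls became 1 among other TEAD partners, 0 among Hippo kinases, 0 for retention and turnover and 1 among targets, where 2, 4 and 6 genes of the last 3 lists had an unadjusted p under 0.05 with edgeR. The scale for control replicate 3 at a gap of at least 1 log2 CPM, chosen after seeing the data, left 3 members at a median of 0.894, 10 targets at 1.01 and 4414 genes at 0.789.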
